A study of Mus musculus with 28 samples.

Results

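The translation initiation and elongation factors described here are the genes whose deposited symbol starts with Eif1 to Eif6, Eef1 or Eef2, apart from the X- and Y-linked pair Eif2s3x and Eif2s3y. The rule found 61 genes among the 17690 gene rows of the series, and 52 of them had a row in all 28 tables. The rule picks genes by name alone and uses no measured value, but it was set with earlier results of these data known. Their levels were read by SORT-seq in single cells from the subependymal zone (SEZ) of adult mice, the layer beside the lateral ventricle in which new neurons are made, which sorts 1 cell into each well and follows the CEL-seq protocol.

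The 28 libraries form 7 sorts of Bl/6 mice with 4 libraries each. The mixed day-60 sort held tdTomato cells of the SEZ or the olfactory bulb taken 60 days after tamoxifen, together with oligodendrocytes bound by an O4 antibody, from mice of 8 to 19 weeks. The day-60 and day-2 tdTomato sorts came from Ki67-iresCreER +/ki, Rosa-tdTomato +/ki mice, in which 1 injection of 5 mg tamoxifen marks cells that express Ki67 at that time, and were taken 60 days later (16 to 19 weeks old) or 2 days later. The Ki67-RFP sort came from Ki67-tagRFP ki/ki mice and holds cells that express Ki67, a protein of dividing cells. The GLAST/EGF sort was made with an antibody to the glutamate transporter GLAST and/or with fluorescent EGF, and the Prom1/CD24 sort with antibodies to these 2 surface proteins. The Troy-GFP sort came from Troy-GFPiresCreER +/ki mice, in which the receptor gene Troy (Tnfrsf19) drives GFP, and stands for neural stem cells (NSCs) in this study. Mice of the last 4 sorts and of the day-2 sort were 8 to 10 weeks old. The labels give no number of mice, and 4 libraries of 96 wells make up 1 plate of 384 wells, so the p-values may measure technical spread only.

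Translation starts when eIF2 brings the initiator tRNA to the small ribosomal subunit, with eIF3 as the scaffold and eIF1, eIF1A and eIF5 checking the start codon. The eIF4F complex joins the cap-binding protein eIF4E, the scaffold eIF4G and the RNA helicase eIF4A, and brings the mRNA to that subunit. During elongation eEF1A delivers each aminoacyl-tRNA, the eEF1B subunits reload it with GTP, and eEF2 moves the ribosome by 1 codon. Many of these mRNAs carry a 5′ terminal oligopyrimidine (TOP) tract, through which mTOR signalling controls their own translation. In the adult SEZ, dormant stem cells are known for low protein synthesis and their dividing progeny for high protein synthesis.

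Promoter sequence gave some of the members a feature that the rule did not use. RefSeq entries of GRCm38.p6, which hold 250 bases before and 50 bases after an annotated start, were matched for 48 of the 61 genes. The palindrome CACGTG, the E-box bound by Myc-family and related factors, stood in 12 of these 48 genes (25%) and in 8.09% of the 27025 genes with an entry. Windows of 30 bases around it, in capitals, are printed for 5 members that were higher in Ki67-RFP than in Troy-GFP cells and for Eif4g1, which was lower. They lie at chr10:81176576-81176605 on the plus strand (Eef2), chr7:108934335-108934364 on the plus strand (Eif3f), chr11:69672595-69672624 on the minus strand (Eif4a1), chr3:138527028-138527057 on the plus strand (Eif4e), chr5:134639488-134639517 on the minus strand (Eif4h) and chr16:20672661-20672690 on the plus strand (Eif4g1).
Eef2: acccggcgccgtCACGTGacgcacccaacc
Eif3f: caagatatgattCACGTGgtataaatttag
Eif4a1: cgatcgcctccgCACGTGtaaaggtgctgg
Eif4e: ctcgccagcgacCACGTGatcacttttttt
Eif4h: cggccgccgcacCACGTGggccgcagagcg
Eif4g1: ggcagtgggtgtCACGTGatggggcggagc

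A run of at least 8 bases of only C or T on the gene's strand, within 30 bases of an annotated start on either side, stood in 13 of the 48 matched members (27.1%) and in 25.8% of all genes with an entry. The 2 start windows below are from members whose mRNAs are known TOP mRNAs, and the run is in capitals. They lie at chr10:81176601-81176660 on the plus strand (Eef2) and chr7:108934385-108934444 on the plus strand (Eif3f). The run starts at position 15 from the annotated start in Eef2 and at -4 in Eif3f. Among other known TOP members, the longest run was 12 bases in Eef1a2, 10 in Eef1a1, 7 in Eif4b, 6 in Eif3a and 4 in Eef1b2. The longest run of any matched member, 21 bases, was in Eif2b5, which is not a known TOP member.
Eef2: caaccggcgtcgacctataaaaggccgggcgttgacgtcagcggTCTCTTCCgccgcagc
Eif3f: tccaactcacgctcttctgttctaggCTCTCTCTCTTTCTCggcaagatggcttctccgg

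Wells with 1000 or more estimated transcripts were taken as cells, which left 1789 of 2688 wells and 11 to 89 cells per library. Libraries held 43149 to 572793 transcripts over these cells. The Prom1/CD24 sort is the shallowest, with 64 cells in all, and enters no test. A cluster of 34 cells expressed gut genes such as Reg1 and Alpi. In it 9 of 12 markers of the NSC-like class described below were raised too, and it was kept out of that class. It held 24 of 76 cells of Troy-GFP library 2, 8 of 62 cells of GLAST/EGF library 4 and 2 of 52 cells of GLAST/EGF library 3. Y-linked genes were read only in the Troy-GFP and GLAST/EGF libraries, where Xist was near 0, so that a comparison of either with another sort also compares sexes. A level below is a CPM value, a library's transcripts of the gene scaled to a fixed total of gene transcripts. Levels of whole sorts are given after scaling between libraries. Levels within a cell class use the class's own transcripts in the library as the total, without that scaling. Each transcript is counted at its 3′ end, so a level does not depend on transcript length.

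The members gave 146244 estimated transcripts in all, from 38.1 for Eif3j1 to 36898 for Eef1a1, with a median of 1069. Eef1a1 alone made up 25.2% of them, and Eef1a1, Eif1, Eif4g2, Eef2 and Eef1b2 together 51%. A total of 22 members had a mean under 20 transcripts per library, and their values are imprecise. Counts of Eef1a1 with its many processed copies, of the close copies Eif3j1 and Eif3j2, and of Eif1a and Eif1ax may be split or shared between copies, and the counting rule and its use of strand are not given in the sources used here.

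As a share of all gene transcripts, the members made up 1.05% ± 0.0519 in the mixed day-60 sort, 0.738% ± 0.0376 in the day-60 sort, 2.02% ± 0.0268 in the day-2 sort and 1.97% ± 0.0314 in the Ki67-RFP sort (SD, n = 4 each). The share was 1.5% ± 0.101 in the GLAST/EGF sort, 1.47% ± 0.193 in the Prom1/CD24 sort and 0.966% ± 0.0373 in the Troy-GFP sort (SD, n = 4 each). In order of level the sorts ran from day-2 to day-60. The ranges of the day-2 and Ki67-RFP libraries overlapped (1.99% to 2.05% and 1.94% to 2.01%), as did those of the GLAST/EGF and Prom1/CD24 libraries (1.35% to 1.56% and 1.31% to 1.74%) and of the mixed day-60 and Troy-GFP libraries (1.01% to 1.13% and 0.944% to 1.02%). Without Eef1a1 the summed level was 8205 CPM in mixed day-60, 6519 CPM in day-60, 13159 CPM in day-2, 14254 CPM in Ki67-RFP, 11089 CPM in GLAST/EGF, 10374 CPM in Prom1/CD24 and 8198 CPM in Troy-GFP cells. Leaving that gene out turned round the order of Ki67-RFP and day-2.

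**Figure D1:**
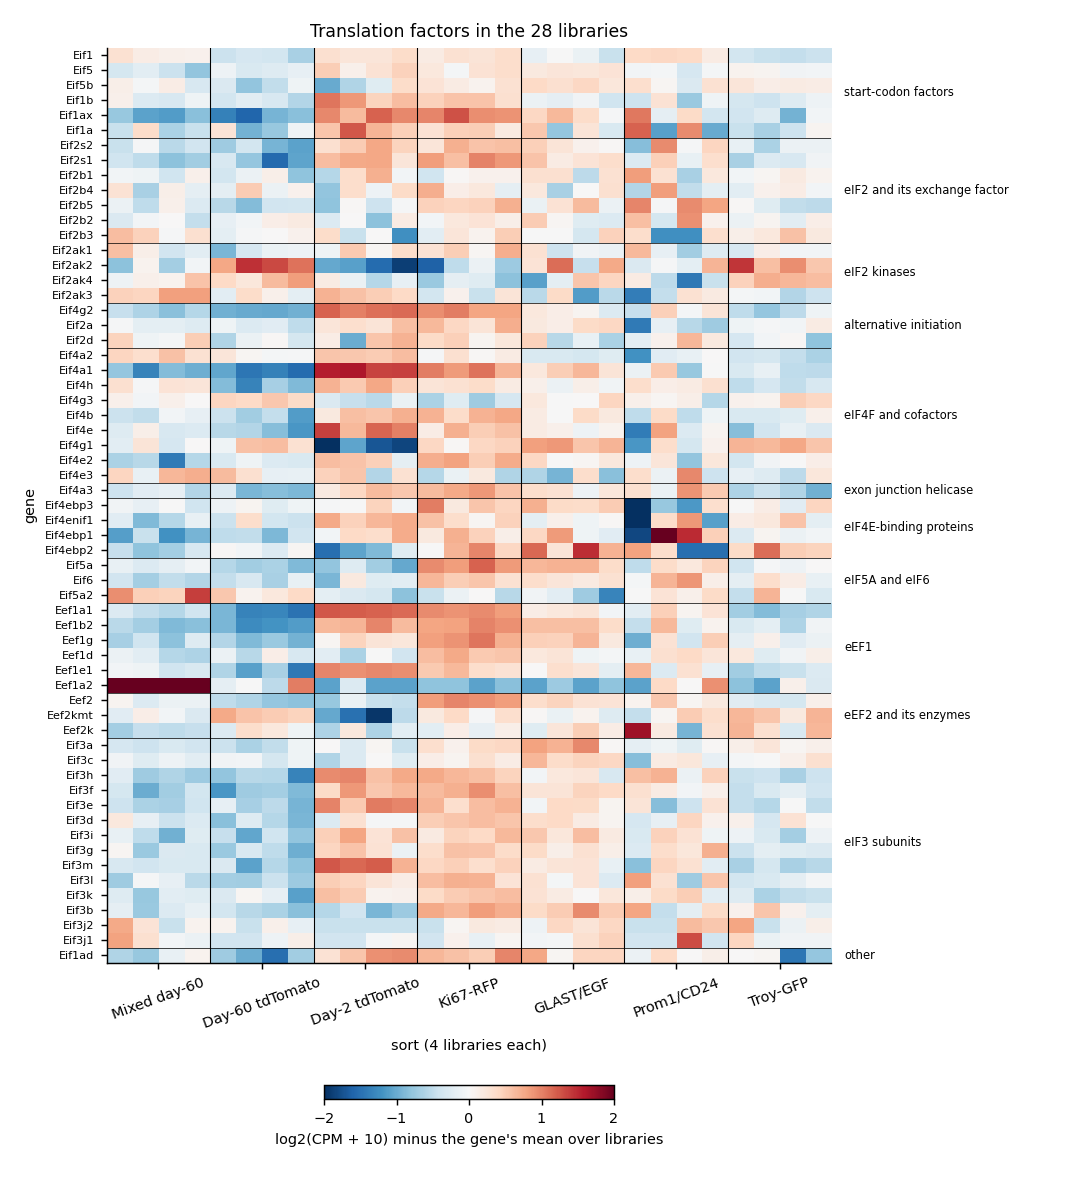
Levels of the 61 factors (rows, grouped by role) in the 28 libraries (columns, 4 per sort), as log2(CPM + 10) minus the mean of the gene over libraries. Most rows are red in the day-2 and Ki67-RFP columns and blue in the day-60 columns; Eif4g1, Eif4g3, Eif2ak2 and Eef2kmt stand against this in the day-60 columns, and Eef1a2 is high in the mixed day-60 columns.

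Ki67-RFP cells against Troy-GFP cells set a sort of dividing cells against the sort that stands for stem cells. The cell classes, described below, differ: 202 of 311 Troy-GFP but 1 of 315 Ki67-RFP cells were NSC-like. Another 36 Troy-GFP cells were progenitor-like, and Ki67-RFP held 129 mixed-marker, 95 neuroblast-like and 78 progenitor-like cells. Mki67 was at 640 CPM in Ki67-RFP and 230 CPM in Troy-GFP libraries. Cell class, sex and division cannot be told apart in this comparison. Most translation factors were higher in Ki67-RFP: of 55 members tested, 34 passed as higher, 5 as lower and 16 did not pass (limma voom, Benjamini-Hochberg over the 8396 genes tested, adjusted p below 0.05). Of all genes tested, 28.3% passed as higher and 31.5% as lower. The median log2 fold was 0.67 over the members and -0.02 over all genes tested. All 5 tested members of the eEF1 group rose, as did 10 of 12 tested eIF3 subunits, 4 of 6 start-codon factors, and 6 of 9 members of eIF4F and its cofactors.

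Eef1a1 encodes the common form of eEF1A and lies at chr9:78478449-78489151 on the minus strand (mm10). It had 5861, 5702, 5871 and 5447 CPM in the Ki67-RFP libraries, against 1880, 1671, 1914 and 1996 CPM in the Troy-GFP libraries. Every Ki67-RFP library was above every Troy-GFP library, and the log2 fold was 1.54 ± 0.07 (SE; limma adjusted p = 3.2e-16). Its exchange factor subunits rose as well: Eef1b2 by a log2 fold of 1.09 ± 0.11, Eef1g by 0.92 ± 0.12, and Eef1d, chosen after its values were seen, by 0.57 ± 0.16. Eef1e1, a subunit of the multi-tRNA synthetase complex, rose by 1.11 ± 0.28.

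Eef2, the translocase, had 1177, 1306, 1241 and 1182 CPM in Ki67-RFP libraries, against 556, 529, 514 and 701 CPM in Troy-GFP libraries. These ranges did not overlap either, and the log2 fold was 1.02 ± 0.10 (limma adjusted p = 1.98e-09). The kinase that inhibits eEF2, Eef2k, gave a log2 fold of -0.57 ± 0.29 that did not pass. Eef2kmt, a methyltransferase of eEF2, was lower by a log2 fold of -0.43 ± 0.18 with an adjusted p of 0.0454 in limma. It fell outside the naming rule, was chosen after its values were seen, did not pass in 7 of the 8 fits without 1 library, and had a log2 fold of 0.21 with ERCC scaling.

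Among start-codon factors, Eif1 rose by a log2 fold of 0.62 ± 0.09, Eif1b by 0.73 ± 0.15, Eif1a by 0.90 ± 0.30 and the X-linked Eif1ax by 1.44 ± 0.19. Both tested subunits of eIF2, Eif2s1 and Eif2s2, were higher, by 1.17 ± 0.17 and 0.74 ± 0.14. Of the 5 tested members Eif2b1, Eif2b2, Eif2b4, Eif2b5 and Eif2a, which are the exchange factor eIF2B and a factor that can bring the initiator tRNA in place of eIF2, Eif2b5 (0.90 ± 0.26) and Eif2a (0.49 ± 0.18) passed. Of 3 tested kinases that phosphorylate eIF2 and so lower initiation, Eif2ak2 and Eif2ak4 were lower, and Eif2ak1, the heme-regulated kinase, gave 0.44 ± 0.21 and did not pass. Eif2ak2, the kinase PKR that senses double-stranded RNA, had 2.04, 15.8, 23.9 and 12.3 CPM in Ki67-RFP libraries, against 88.7, 46, 59.9 and 43.4 CPM in Troy-GFP libraries. The groups did not overlap, and the log2 fold was -2.42 ± 0.46 (limma adjusted p = 6.72e-05). Ki67-RFP libraries held 496202 to 572793 transcripts of all genes, so their Eif2ak2 levels rest on few transcripts. Eif2ak4, the amino acid sensor GCN2, was lower by -1.82 ± 0.41.

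In eIF4F, the helicase gene Eif4a1 had a log2 fold of 1.21 ± 0.13 and its paralog Eif4a2 one of 0.50 ± 0.12, which was -0.14 with each cell thinned to 1000 transcripts. The cap-binding protein Eif4e rose by 0.90 ± 0.18, and the helicase cofactors Eif4b and Eif4h by 0.79 ± 0.15 and 0.62 ± 0.12. The scaffolds split by gene. Eif4g2, which lacks the eIF4E-binding part and serves cap-independent initiation, had 1765, 1880, 1588 and 1602 CPM in Ki67-RFP libraries, against 644, 536, 639 and 864 CPM in Troy-GFP libraries. The ranges lay apart, and the log2 fold was 1.29 ± 0.11 (limma adjusted p = 1.02e-10). Eif4g1, the canonical scaffold, was lower, with 139, 103, 138 and 143 CPM in Ki67-RFP libraries, against 168, 165, 180 and 155 CPM in Troy-GFP libraries. Its log2 fold was -0.44 ± 0.15 (limma adjusted p = 0.0121). It did not pass without Ki67-RFP library 2 (-0.30), and with ERCC scaling it was 0.19, on the other side of 0. Eif4g3, its paralog, was lower by -0.85 ± 0.15 and was named after its values were seen. None of the 4 tested eIF4E-binding proteins passed: Eif4ebp1 gave 0.51 ± 0.30 and Eif4ebp2 -0.22 ± 0.30.

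Of the 12 tested eIF3 subunits, Eif3e, Eif3f and Eif3h rose by log2 folds of 0.94 ± 0.15, 1.03 ± 0.14 and 1.06 ± 0.14. The core subunits Eif3a and Eif3c gave 0.10 ± 0.12 and -0.01 ± 0.13 and did not pass. Eif5a, which helps the ribosome through stretches such as runs of proline and carries the amino acid hypusine, rose by 1.03 ± 0.12, while Eif6, which keeps the ribosomal subunits apart, gave 0.41 ± 0.19 and did not pass. Eif4a3, the helicase of the exon junction complex, rose by 1.36 ± 0.16, and Eif1ad, named like eIF1A, by 1.31 ± 0.31. The Troy-GFP libraries 1 and 2 were read on another flow cell than the Ki67-RFP libraries: with Troy-GFP libraries 3 and 4 alone, 31 of 56 members tested were higher and 3 lower. Without the gut-gene cells, an alternative chosen after seeing the data, the counts were 34 and 4, and with values set per ERCC spike-in RNA, where the median log2 fold of all genes was 0.61, they were 46 and 2.

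Of the 11 known TOP mRNAs among the members 10 were tested, and in Ki67-RFP 9 of them rose and 0 fell, with a median log2 fold of 0.98, beside 25 higher and 5 lower of the 45 other members tested, with a median of 0.57. Of 11 tested members with a CACGTG in the promoter entry, 8 were higher and 1 lower, and of 33 tested with an entry that lacks it, 19 were higher and 4 lower.

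Genes outside the factor families that act on the same steps did not all follow. Of 9 tested genes of the mTOR pathway, the GTPase Rheb rose (log2 fold 0.46) and 6 fell: the kinase gene Mtor (-0.99), its inhibitor Tsc1 (-0.90), the eIF4A inhibitor Pdcd4 (-0.74), the TOP mRNA binder Larp1 (-0.71), the inhibitor Ddit4 (-1.17) and Rps6kb1 (-0.35). Of 7 tested partners of the poly(A) tail and cap, 5 rose, among them the poly(A)-binding protein Pabpc1 (0.90) and Tpt1 (1.55), itself a TOP mRNA, and 2 fell, Mknk1 (-0.82) and the eIF4E-binding Cyfip1 (-1.12). Both tested Myc genes rose, Mycn by 1.24 ± 0.24 and Mycl by 2.45 ± 0.38, and of 5 tested genes of the integrated stress response 1 rose, the transcription factor Atf4 (1.05 ± 0.14). Of 4 tested genes of termination and recycling, the release factor gene Gspt1 rose (0.43).

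**Figure D2:**
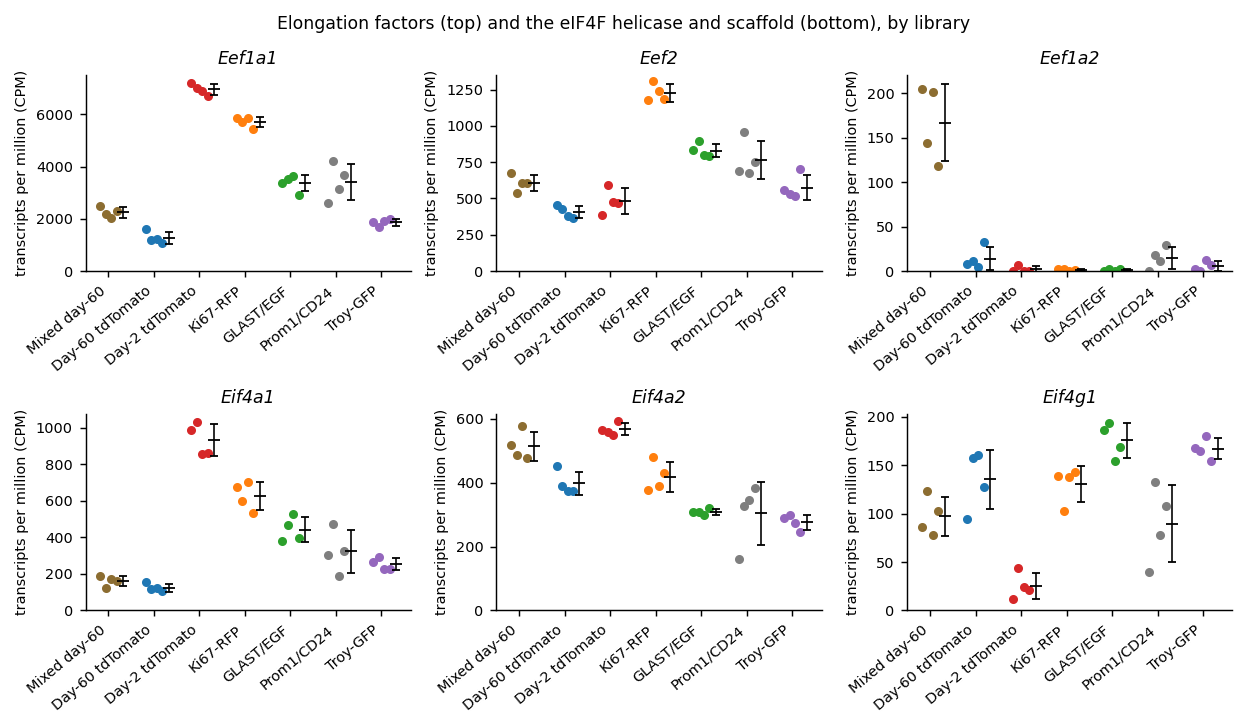
Level in CPM of 6 factors in each library (points) with the mean and SD of 4 libraries (bars) for the 7 sorts on the horizontal axis. Eef1a1 and Eif4a1 are highest in day-2 libraries, Eef2 is highest in Ki67-RFP libraries at 1177 to 1306 CPM, Eif4g1 is lowest in day-2 libraries at 12.1 to 43.8 CPM, and Eef1a2 stands out in mixed day-60 libraries at 118 to 205 CPM.

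Day-60 against day-2 tdTomato cells follows marked cells after their division. Most of the members tested were lower at day 60: of 53, 32 were lower, 4 higher and 17 did not pass, with 32.8% of the 7648 genes tested lower and 34.8% higher. The median log2 fold was -0.64 over the members and 0.01 over all genes tested. The groups differ in age and in cell types: 289 of 349 day-60 cells but 6 of 220 day-2 cells were NSC-like, and 2 of 349 against 154 of 220 neuroblast-like. Cell class, age, time after tamoxifen and flow cell, which the file names do not give for day-2, cannot be told apart in this comparison.

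Eef1a1 had 1612, 1192, 1230 and 1091 CPM in day-60 libraries, against 7221, 7012, 6890 and 6704 CPM in day-2 libraries. The groups were far apart, with a log2 fold of -2.33 ± 0.10 (limma adjusted p = 2.95e-12). Eef1b2 (log2 fold -1.78 ± 0.14), Eef1g (-0.94 ± 0.15) and Eef1e1 (-2.38 ± 0.36) fell as well. Eef2 did not pass: it had 456, 430, 378 and 366 CPM in day-60 libraries, against 386, 596, 478 and 470 CPM in day-2 libraries. These ranges overlapped, and the log2 fold was -0.12 ± 0.14. The partner enzyme Eef2kmt was higher by 2.40 ± 0.38, with 85.1 to 108 CPM in day-60 libraries against 8.08 to 38.6 CPM in day-2 libraries, while Eef2k gave 0.58 ± 0.37 and did not pass.

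The largest fall among members tested was that of Eif4a1, at chr11:69666936-69672423 on the minus strand. It had 155, 115, 123 and 106 CPM in day-60 libraries, against 990, 1031, 855 and 862 CPM in day-2 libraries. No day-60 library came near a day-2 library, and the log2 fold was -2.78 ± 0.15 (limma adjusted p = 3.38e-11). Its paralog Eif4a2 fell by 0.39 ± 0.12. Eif4e (-1.86 ± 0.21) and Eif4g2 (-2.0 ± 0.11) fell too, with Eif4h at -1.50 ± 0.16 and Eif4b at -1.17 ± 0.20. Eif4g1 was higher, with 95, 158, 161 and 128 CPM in day-60 libraries, against 12.1, 43.8, 24.3 and 21.1 CPM in day-2 libraries. The groups did not overlap, and the log2 fold was 2.53 ± 0.38 (limma adjusted p = 1.12e-05). Eif4g3 rose by 0.95 ± 0.15 and was named after its values were seen.

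Of the initiation factors before eIF4F, 5 of 6 start-codon factors fell, with Eif1ax at -2.27 ± 0.25, Eif1b at -1.05 ± 0.17 and Eif1 at -0.62 ± 0.10. Eif2s1 (-1.58 ± 0.26) and Eif2s2 (-1.22 ± 0.18) fell. Eif2ak2 rose, with 52.7, 91, 81.7 and 68.1 CPM in day-60 libraries, against 8.06, 7.29, 2.69 and 0 CPM in day-2 libraries. All 4 day-60 libraries were above all day-2 libraries, and the log2 fold was 3.97 ± 0.52 (limma adjusted p = 2.31e-06). Day-2 libraries held 253051 to 371893 transcripts of all genes, so their Eif2ak2 levels rest on very few transcripts and the size of this fold is imprecise. Among eIF3 subunits 9 of 12 tested fell, among them Eif3m (-1.77 ± 0.21), Eif3h (-1.59 ± 0.19), Eif3f (-1.45 ± 0.18) and Eif3e (-1.41 ± 0.19). The other 3, Eif3a (-0.14 ± 0.17), Eif3b (0.20 ± 0.28) and Eif3c (0.24 ± 0.18), did not pass. Eif4ebp1, the eIF4E-binding protein best known as an mTOR target, fell by 1.23 ± 0.38, and Eif5a (0.10 ± 0.17) and Eif6 (-0.04 ± 0.28) did not pass. Of the 10 TOP mRNAs tested 7 fell and 0 rose.

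The comparison of Ki67-RFP with Troy-GFP and that of day-60 with day-2 share no library. Of the 52 members tested in both, 29 were higher in Ki67-RFP and lower at day 60. They are 85.3% of the 34 members higher in Ki67-RFP and 90.6% of the 32 lower at day 60. These 34 and 32 were not limited to members tested in both. Over the 7357 genes tested in both comparisons, 81.6% of those higher in Ki67-RFP were lower at day 60, and 72.7% of those lower at day 60 were higher in Ki67-RFP. Of the 7357 genes, 24.1% were higher in Ki67-RFP and lower at day 60, and 27.3% were lower in Ki67-RFP and higher at day 60. A total of 55 genes passed in the same direction in both. The 4 members lower in Ki67-RFP and higher at day 60 were Eif2ak2, Eif4g1, Eif4g3 and Eef2kmt, and 0 members passed in the same direction in both. Outside the families, 2 of 8 tested mTOR pathway genes were higher at day 60, Mtor (log2 fold 1.00) and Larp1 (0.39), and 6 did not pass. Of 7 tested poly(A) and cap partners 1 was higher, Cyfip1 (0.98), and 4 were lower, among them Pabpc1 (-1.46) and Tpt1 (-2.22). Both tested Myc genes fell: Mycn and Mycl were at 4.87 and 0.54 CPM in day-60 cells, against 180 and 101 CPM in day-2 cells. Of 5 tested stress-response genes Ppp1r15a, a regulator of the phosphatase that reverses eIF2 phosphorylation, rose by 2.86, and Atf4 (-0.75) and asparagine synthetase Asns (-3.38) fell.

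**Figure D3:**
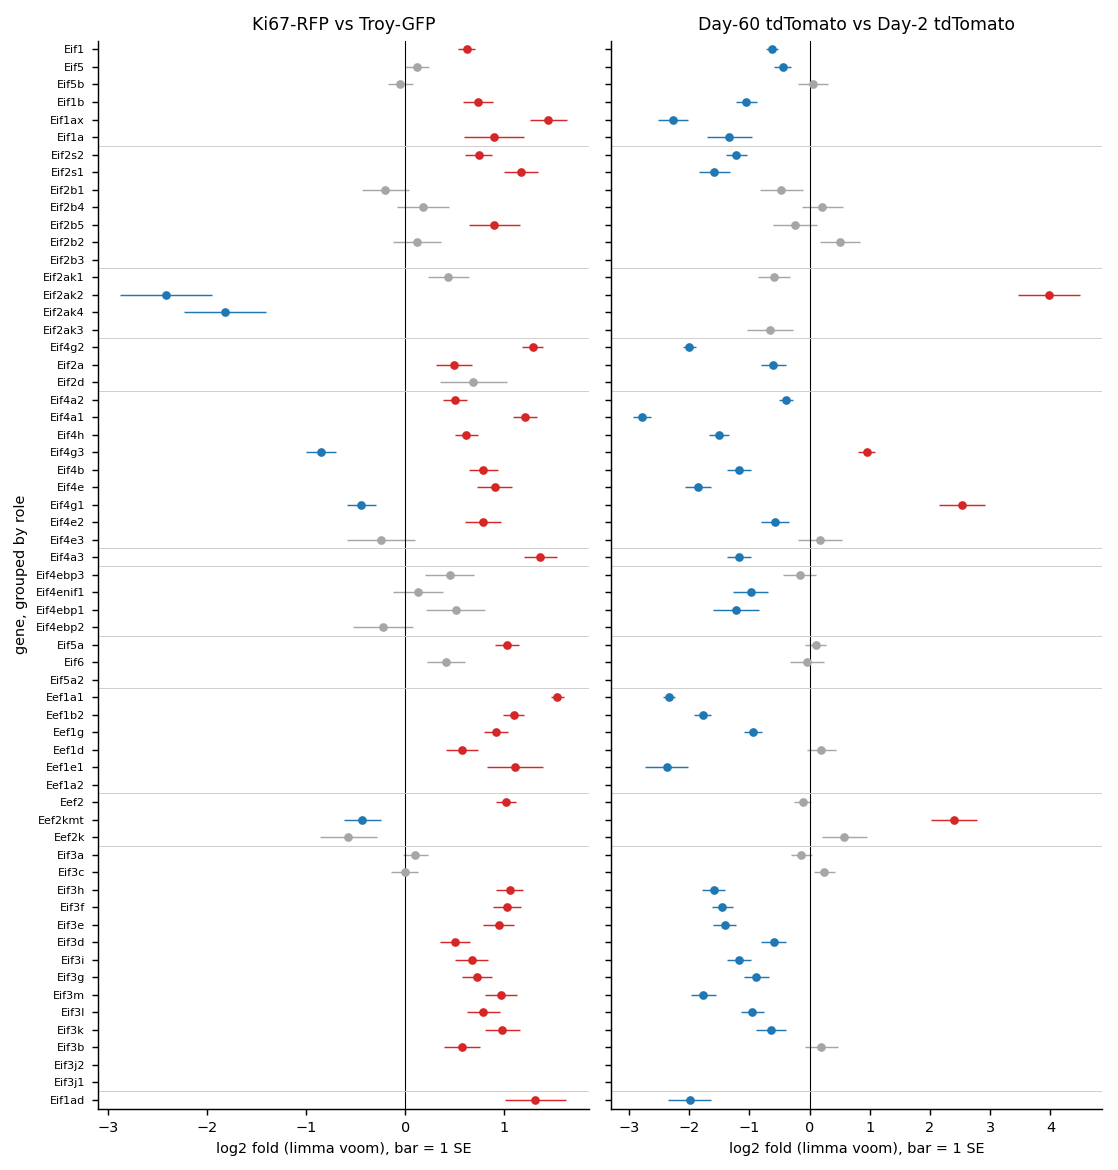
Log2 fold with its standard error (bars) from limma voom for each factor tested, in Ki67-RFP against Troy-GFP cells (left) and day-60 against day-2 tdTomato cells (right); red and blue points passed as higher or lower at an adjusted p below 0.05, grey points did not, and rows without a point were not tested. The 2 columns are close to mirror images, with Eif2ak2, Eif4g1, Eif4g3 and Eef2kmt on the opposite side from most rows.

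Day-2 tdTomato cells against Ki67-RFP cells, cells marked 2 days before against cells that express Ki67 when sorted, showed no common shift. Mki67 was also read in day-2 libraries, at 221 CPM, against 640 CPM in Ki67-RFP libraries. Cell class, genotype and tamoxifen differ between these sorts and cannot be told apart. Of 53 members tested, 8 were higher and 13 lower, where 14.3% of the 6952 genes tested were higher and 14.2% lower. The median log2 fold was -0.13, and 0.01 over all genes tested. The higher members were Eif3m (0.69 ± 0.14), Eif4e (0.59 ± 0.16), Eef1e1 (0.58 ± 0.21), Eif4a1 (0.57 ± 0.10), Eif4a2 (0.44 ± 0.11), Eif4h (0.36 ± 0.11), Eef1a1 (0.28 ± 0.04) and Eif4g2 (0.23 ± 0.07). With ERCC scaling, where the median of all genes was -0.56, 0 members were higher and 30 lower, and the direction turned for Eef1a1 (-0.28), Eif4g2 (-0.34), Eif4h (-0.20) and Eif4a2 (-0.11).

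The members that were lower in day-2 cells had larger changes. Eif4g1 had 12.1, 43.8, 24.3 and 21.1 CPM in day-2 libraries, against 139, 103, 138 and 143 CPM in Ki67-RFP libraries. The groups did not overlap, and the log2 fold was -2.38 ± 0.34 (limma adjusted p = 1.05e-05). Eef2 had 386, 596, 478 and 470 CPM in day-2 libraries, against 1177, 1306, 1241 and 1182 CPM in Ki67-RFP libraries, and fell by 1.36 ± 0.11 on the log2 scale. Eif5a had 178, 264, 192 and 152 CPM in day-2 libraries, against 620, 572, 727 and 578 CPM in Ki67-RFP libraries, and fell by 1.68 ± 0.15. Neither gene's groups overlapped. Eef2kmt (-1.94 ± 0.39), Eif3b (-1.61 ± 0.24), Eif2b5 (-0.99 ± 0.31), Eef1d (-0.97 ± 0.19), Eif6 (-0.86 ± 0.24), Eef1g (-0.64 ± 0.12), Eif3d (-0.59 ± 0.16), Eif5b (-0.57 ± 0.19), Eif3a (-0.48 ± 0.14) and Eif3c (-0.44 ± 0.15) were also lower.

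Values of Eef2, Eif5a and Eif4g1 among the neuroblast-like cells of these sorts are given without a test. Eef2 was at 532 ± 72.8 CPM in 154 day-2 cells, against 1156 ± 66.7 CPM in 95 Ki67-RFP cells (SD over 4 libraries each). Eif5a was at 139 ± 40.5 CPM in day-2 cells, against 329 ± 61 CPM in Ki67-RFP cells, and Eif4g1 at 20.6 ± 21.8 CPM in day-2 cells, against 51.2 ± 18.4 CPM in Ki67-RFP cells. The libraries of Eef2 and Eif5a did not overlap, while those of Eif4g1 did (0 to 47.6 CPM in day-2 and 31.5 to 74.5 CPM in Ki67-RFP cells). Different clusters held most of the class in the 2 sorts: 123 day-2 cells but 45 Ki67-RFP cells were in the cluster led by Nrep, Stmn2 and Dlx6os1, and 31 day-2 cells but 50 Ki67-RFP cells in the cluster led by the mitosis genes Ube2c and Tacc3. In the mixed-marker class, which held progenitor and neuroblast markers together, Eef2 was at 413 ± 82.7 CPM in 39 day-2 cells, against 1195 ± 129 CPM in 129 Ki67-RFP cells. Eif4g1 in that class was at 0 to 64.4 CPM in day-2 and 100 to 181 CPM in Ki67-RFP libraries. Eif5a was at 206 to 306 CPM and 541 to 693 CPM, and neither was tested. The file names give no flow cell for the day-2 libraries, so flow cell and sort cannot be told apart here.

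GLAST/EGF cells against Troy-GFP cells set side by side 2 sorts of the same ages and sex pattern. Of 53 members tested, 24 were higher and 1 lower, where 14% of the 7818 genes tested were higher and 16.1% lower, and the median log2 fold was 0.44, against -0.003 over all genes. Eef1a1 had 3386, 3525, 3643 and 2934 CPM in GLAST/EGF libraries, against 1880, 1671, 1914 and 1996 CPM in Troy-GFP libraries. The groups did not overlap, and the log2 fold was 0.86 ± 0.09 (limma adjusted p = 1.23e-06). Eef1b2 (0.85 ± 0.12), Eef1g (0.57 ± 0.13), Eef2 (0.54 ± 0.12), Eif4a1 (0.80 ± 0.14), Eif4g2 (0.51 ± 0.14), Eif5a (0.76 ± 0.13), Eif2s1 (0.75 ± 0.18), Eif2s2 (0.49 ± 0.15) and Eif4a3 (0.90 ± 0.18) rose, as did 9 of 12 tested eIF3 subunits, Eif3a among them (0.51 ± 0.17). Eif4a2, Eif4g1, Eif1 and the kinases Eif2ak2 and Eif2ak4 did not pass, with log2 folds of 0.17 ± 0.12, 0.07 ± 0.14, 0.24 ± 0.11, -0.61 ± 0.34 and -0.97 ± 0.47. The 1 member that fell was Eef2kmt (-0.67 ± 0.20), which was at 0.20 with ERCC scaling. Eif3a did not pass without GLAST/EGF library 1 or 3 or Troy-GFP library 1, 3 or 4 (0.42 to 0.50).

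These 2 sorts each had 2 libraries on each of 2 flow cells. Within 1 flow cell 13 members were higher and 0 lower, and within the other 10 were higher and 0 lower, with 2 libraries per sort in each. With every cell weighted alike the counts were 14 and 1, without the gut-gene cells 23 and 1, and with ERCC scaling 48 and 0, where the median of all genes was 0.87. Of GLAST/EGF cells 88 of 216 were NSC-like and 74 progenitor-like, against 202 and 36 of 311 Troy-GFP cells.

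Mixed day-60 cells against day-60 tdTomato cells, which add the olfactory bulb and O4-bound cells, gave 11 members higher and 4 lower of 55 tested, where 22.2% of the 8152 genes tested were higher and 21.1% lower. A share of 11 in 55 is near the background. Of 314 mixed day-60 cells 125 were oligodendrocyte-like, 74 mature neuron-like and 28 NSC-like, against 2, 4 and 289 of 349 day-60 cells. The mice were 8 to 19 weeks old in the mixed sort and 16 to 19 weeks in the day-60 sort. Cell class, tissue and age cannot be told apart in this comparison. With library total as the scale 17 were higher and 3 lower, and with ERCC scaling, where the median of all genes was -0.70, 1 was higher and 22 were lower. Eef1a2, the eEF1A form of neurons and muscle, had 205, 143, 202 and 118 CPM in mixed day-60 libraries, against 8.45, 10.9, 4.53 and 32.5 CPM in day-60 libraries. No libraries overlapped, and the log2 fold was 3.70 ± 0.51 (limma adjusted p = 1.97e-05). It was the only member that passed as higher under ERCC scaling. Eif4h (1.15 ± 0.16), Eef1a1 (0.79 ± 0.12), Eif4e (0.62 ± 0.20), Eif1 (0.57 ± 0.11), Eef2 (0.54 ± 0.12) and Eif5a (0.52 ± 0.14) were higher as well, as were Eef1e1, Eef1b2, Eif4g2 and Eif4a2. With ERCC scaling 7 of these 11 lay on the other side of 0: Eef1b2 (-0.35), Eif4g2 (-0.37), Eif4a2 (-0.38), Eef2 (-0.17), Eif1 (-0.14), Eif5a (-0.19) and Eif4e (-0.08). Eif2ak2 (-2.02 ± 0.37), Eef2kmt (-0.83 ± 0.20), Eif4e2 (-0.71 ± 0.27) and Eif4g3 (-0.45 ± 0.13) fell, and 0 of 12 tested eIF3 subunits passed.

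Cell classes, rebuilt by clustering without the member genes and named from marker lists, were described over libraries with at least 5 cells of the class and were not tested against each other. NSC-like cells, a class whose markers are shared by quiescent stem cells and astrocytes, had the lowest member share, at 0.657% ± 0.0620 of transcripts (SD over 16 libraries). The share was 1.89% ± 0.192 in progenitor-like cells (13 libraries), 1.97% ± 0.120 in mixed-marker cells (10 libraries) and 1.93% ± 0.107 in neuroblast-like cells (8 libraries). No library of the NSC-like class (0.582% to 0.797%) reached any library of these 3 (at least 1.57%). Mature neuron-like and oligodendrocyte-like cells, nearly all from the mixed sort, stood between at 1.07% ± 0.0540 and 1.06% ± 0.0534 (4 libraries each). The mean number of transcripts per cell, as the median over libraries, was 4284 in neuroblast-like, 5018 in NSC-like and 10327 in progenitor-like cells. The part of depth in these shares was not tested.

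Within NSC-like cells, the cluster led by Thbs4, Ifit3 and Gfap had a member share of 0.825% ± 0.0944 (10 libraries), and the 3 clusters led by Crym, Agt or Hopx 0.608%, 0.585% and 0.616%.

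Single members differed in how far they followed this order. Eef1a1 averaged 855 ± 258 CPM in NSC-like, 4734 ± 786 CPM in progenitor-like, 6609 ± 950 CPM in neuroblast-like and 1728 ± 139 CPM in mature neuron-like cells. Eif4g2 had the same order, with 397 ± 92.7, 1300 ± 280, 2054 ± 274 and 642 ± 101 CPM in those classes. Eif5a and Eif4g1 were highest among these 4 classes in progenitor-like cells, at 703 ± 119 and 200 ± 39.8 CPM, and in neuroblast-like cells were at 234 ± 113 and 35.9 ± 24.8 CPM. Eif2ak2 averaged 60.4 ± 33.3 CPM in NSC-like cells, 29.3 ± 25.5 CPM in progenitor-like, 4.93 ± 11.1 CPM in neuroblast-like and 6.88 ± 5.09 CPM in mature neuron-like cells.

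**Figure D4:**
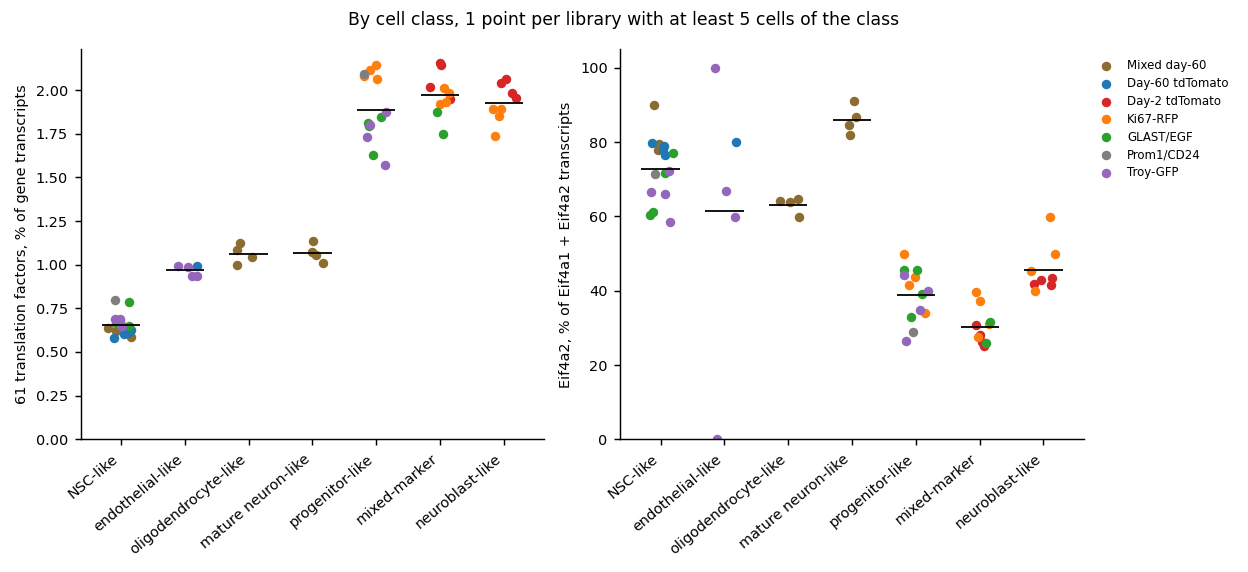
Share of the 61 factors in gene transcripts (left) and Eif4a2 as a share of Eif4a1 plus Eif4a2 transcripts (right), by rebuilt cell class; each point is a library with at least 5 cells of the class, coloured by sort, and lines are class means. NSC-like libraries lie at 0.582% to 0.797% and the progenitor-like, mixed-marker and neuroblast-like libraries above 1.5%; the endothelial-like points on the right rest on few transcripts.

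In NSC-like cells the member share was 0.605% ± 0.0177 in day-60 and 0.669% ± 0.0210 in Troy-GFP libraries. Of 46 members tested there, 0 were higher and 1 lower, where 1.41% of the 6310 genes tested were higher and 1.27% lower, and the median log2 fold was -0.11. The member that passed, Eef1a1, had 692, 673, 618 and 622 CPM in day-60 NSC-like cells, against 936, 879, 872 and 769 CPM in those of Troy-GFP. The groups did not overlap, and the log2 fold was -0.40 ± 0.10 (limma adjusted p = 0.0268). Different clusters held the class in these sorts: 28 of 289 day-60 cells but 55 of 202 Troy-GFP cells were in the cluster led by Thbs4, and 145 day-60 cells but 73 Troy-GFP cells in the cluster led by Crym. The Eef1a1 call was lost without day-60 library 2, 3 or 4 (Eif5b passed as lower without library 4), without Troy-GFP library 1 or 3, with a minimum of 2000 transcripts per cell, and with ERCC scaling. With a minimum of 500 transcripts, 1 member was higher and 5 lower.

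In progenitor-like cells the share was 2.10% ± 0.0350 in Ki67-RFP libraries, against 1.77% ± 0.0978 in GLAST/EGF and 1.74% ± 0.130 in Troy-GFP libraries. Of 42 members tested between Ki67-RFP and GLAST/EGF, 2 were higher and 1 lower, where 3.42% of the 4385 genes tested were higher and 3.4% lower, and the median log2 fold was 0.22 against 0.02 over all genes. Eef1a1 rose by 0.37 ± 0.07 (limma adjusted p = 0.00314) and Eif4g2 by 0.53 ± 0.12 (limma adjusted p = 0.0144). Eif3a fell by 0.63 ± 0.17 (limma adjusted p = 0.03). Without Ki67-RFP library 1 Eif4g2 did not pass, and Eif3a did not pass in 6 of the 8 fits without 1 library. With ERCC scaling 0 members were higher and 3 lower. Of the progenitor-like cells 37 of 78 in Ki67-RFP and 22 of 74 in GLAST/EGF were in the cluster led by Mki67. In both within-class comparisons the sexes of the groups also differ. For NSC-like cells, age differs too, at 16 to 19 weeks in day-60 and 8 to 10 weeks in Troy-GFP mice. Only the day-60 mice had received tamoxifen. Flow cell is unmatched in both comparisons, since part of the Troy-GFP sort and part of the GLAST/EGF sort was read on another one. The part of age, tamoxifen and flow cell in these within-class results was not tested.

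Both elongation factor eEF1A and helicase eIF4A come from paralog pairs, whose shares need no scaling between libraries. Eif4a2 made up 76.1% ± 2.81 of Eif4a1 plus Eif4a2 transcripts in mixed day-60, 76.2% ± 1.61 in day-60, 37.9% ± 2.58 in day-2, 40.1% ± 5.11 in Ki67-RFP, 41.4% ± 4.25 in GLAST/EGF, 48.5% ± 13.4 in Prom1/CD24 and 52.2% ± 1.69 in Troy-GFP libraries (SD, n = 4 each). The day-60 libraries (74.5% to 77.9%) lay above all day-2 libraries (35.2% to 40.8%), and the Ki67-RFP libraries (35.5% to 44.6%) and GLAST/EGF libraries (36.1% to 44.8%) below all Troy-GFP libraries (50.2% to 54.4%). Each of these 3 differences had p = 0.0286 in a 2-sided exact permutation test, the smallest that 4 against 4 libraries allow, and an adjusted p of 0.0571 over the 10 tests, so 0 of 10 passed the correction. By class, the Eif4a2 share averaged 86.1% in mature neuron-like, 72.9% in NSC-like, 63.1% in oligodendrocyte-like, 45.6% in neuroblast-like, 39% in progenitor-like and 30.3% in mixed-marker cells. Within NSC-like cells the sorts differed, with 76.6% to 79.9% in day-60 libraries and 58.6% to 72.3% in Troy-GFP libraries, which was not tested.

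Eef1a2 made up 6.91% ± 1.79 of Eef1a1 plus Eef1a2 transcripts in mixed day-60 libraries, against 1.17% ± 1.17 in day-60 libraries, and 0.0260% ± 0.0520 in day-2 libraries. Both differences, mixed day-60 from day-60 and day-60 from day-2, had p = 0.0286 and an adjusted p of 0.0571 in the exact permutation test. The latter rests on 26.4 Eef1a2 transcripts in day-60 and 2.01 in day-2 libraries. Day-60 library 4 was at 2.90%, above the others at 0.367% to 0.905%. The day-60 sort held 4 mature neuron-like cells, whose part in its share was not tested. Of the 323 Eef1a2 transcripts 87.9% came from the 79 mature neuron-like cells, of which 71 had at least 1. It was read in 14 of 23 oligodendrocyte precursor-like cells and in 11 of 629 NSC-like cells, a level of 1.75% that serves as background, at median depths of 6211, 6545 and 4904 transcripts per cell. In mature neuron-like cells Eef1a2 averaged 541 ± 115 CPM and made up 23.8% of the pair.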

How the data were processed

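Single-cell libraries of 7 sorts were analysed. BWA 0.6.2-r126 and the genome build mm10 are named per the submitters' processing notes. The deposited values are the authors' estimates of transcripts per gene and well (a unit recorded here as other, neither read counts nor scaled values): 4800995 of 4801006 values above 0 equalled the collision correction for 256 random barcodes within 1e-06. The 87 ERCC rows stayed out of library sizes. Members, gene lists and tests were chosen with earlier results of these data known.

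Transcripts were summed over cells per library, genes were filtered on low sums (a minimum of 10 transcripts per library of median size and 15 in all), scaled with TMM, and fitted with limma 3.58.1 voom (offset 0.5) in R 4.3.3 on the 4 libraries of both sorts, with Benjamini-Hochberg adjustment over all genes tested. Levels are CPM scaled over 28 libraries. Clusters used scanpy 1.11.5 (2000 variable genes without members, 30 components, 15 neighbours, Leiden resolution 1.0, seed 7), and class names needed at least 3 raised markers. Since each well received 1 sorted cell, doublets were not called. Replicates of a sort differed beyond sampling noise in every pair (chi-square per degree of freedom of at least 1.56). Gene positions are from GENCODE M21 and promoters from RefSeq GRCm38.p6. The genes named are a list of 24 members and the 10 further members with the largest fold among those passing in each comparison. Members named outside it were chosen after their values were seen. For Ki67-RFP against Troy-GFP they were Eef1d, Eef2kmt, Eif1a, Eif2a, Eif2ak1, Eif2b1, Eif2b2, Eif2b4, Eif3c, Eif4g3 and Eif4h. They were Eif3b, Eif3c and Eif4g3 for day-60 against day-2, Eif2ak2 and Eif2ak4 for GLAST/EGF, and Eif5b for NSC-like cells. Other scalings, filters, cell minimums, a replicate block, thinning, single flow cells and leaving out each library were tried as alternatives.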

Additional observations from a re-analysis of the deposited data

Results flagged for a closer look

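In a sort of 4 libraries, a library was singled out where its gap to the nearest other library, divided by the range of the sort, passed the 95% critical value of Dixon's test for 4 values. This happened in 28 of 343 groups of values (8.16%), where chance gives about 1 in 20. The values below are these gaps as shares of the range.

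The summed level of the members was singled out in GLAST/EGF (0.897, library 4 low), Day-2 (0.848, library 4 low) and Troy-GFP (0.872, library 4 high). Among elongation factors, this held for Eef1b2 in Day-2 (0.866) and GLAST/EGF (0.951), and for the low level of Eef1a2 in Ki67-RFP (0.864) and Day-2 (1.0), with its share of the pair there at 0.929 and 1.0. Among factors of the start codon and eIF2, it held for Eif1 in Prom1/CD24 (0.942), Eif1a in mixed day-60 (0.852), Eif1ax in Ki67-RFP (0.83), Eif2b5 in Ki67-RFP (0.871) and Eif2s2 in Troy-GFP (0.916).

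Of eIF3 subunits, Eif3c in Day-60 (0.862), Eif3e in Day-2 (0.848) and Troy-GFP (0.851), Eif3h in Troy-GFP (0.833) and Eif3k in mixed day-60 (0.903) were singled out. The eIF4 genes were Eif4a3 in Day-60 (0.927), Eif4b in Troy-GFP (0.843), Eif4e in mixed day-60 (0.865), Eif4e2 in mixed day-60 (0.891) and Day-60 (0.851), Eif4ebp2 in Troy-GFP (0.881), Eif4g1 in Ki67-RFP (0.872, library 2 low at 103 CPM) and Eif4g3 in Prom1/CD24 (0.843). The last was Eif5a in GLAST/EGF (0.873, library 4 low at 413 CPM). Library 4 of GLAST/EGF held 8 cells of the gut-gene cluster, and their part in its values was not tested here.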

How the results depend on the processing

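Counts are members passing in either direction. With each cell thinned to 1000 transcripts, which left 9 to 28 members testable, they were 14 for Ki67-RFP against Troy-GFP, 14 for day-60 against day-2, 7 for day-2 against Ki67-RFP (4 higher and 3 lower, which turns the balance), 5 for GLAST/EGF against Troy-GFP, 7 for mixed day-60 against day-60, and 0 in both within-class comparisons. With ERCC scaling they were 48 for GLAST/EGF, 23 for mixed day-60 (balance turned), 0 for NSC-like and 3 for progenitor-like cells (balance turned). GLAST/EGF gave 15 with every cell weighted alike, and 13 and 10 within the flow cells. NSC-like cells gave 6 at a minimum of 500 transcripts and 0 at 2000. Levels by cell state, NSC-like cells included, were redone at resolution 0.6, where the NSC-like member share was 0.742%. The cause of these shifts, other than fewer members testable after thinning, was not tested.

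Leaving out 1 library gave 37 to 40 members for Ki67-RFP against Troy-GFP, 33 to 37 for day-60 against day-2, 17 to 21 for day-2 against Ki67-RFP, 20 to 25 for GLAST/EGF, 10 to 17 for mixed day-60, 0 to 1 for NSC-like and 1 to 3 for progenitor-like cells. Single genes that changed sign with ERCC scaling were, for Ki67-RFP, Eef2kmt (0.21) and Eif4g1 (0.19); for day-2 against Ki67-RFP, Eef1a1 (-0.28), Eif1 (-0.54), Eif4a2 (-0.11), Eif4g2 (-0.34) and Eif4h (-0.20); for GLAST/EGF, Eef2kmt (0.20). For mixed day-60 they were Eef1b2 (-0.35), Eef1g (-0.49), Eef2 (-0.17), Eif1 (-0.14), Eif1b (-0.50), Eif3a (-0.69), Eif3e (-0.70), Eif4a2 (-0.38), Eif4e (-0.076), Eif4g2 (-0.37) and Eif5a (-0.19). Eif4a2 in Ki67-RFP was -0.14 after thinning.

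Libraries share only a number across sorts (correlations of deviations from -0.079 to 0.066). The replicate block gave 34 higher and 5 lower for Ki67-RFP, 4 and 32 for day-60, 7 and 13 for day-2, 21 and 1 for GLAST/EGF, 8 and 4 for mixed day-60, 0 and 1 for NSC-like, and 2 and 1 for progenitor-like cells. Depth limits the 22 members under 20 transcripts per library.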
